A study of Mus musculus with 72 samples.

Results

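The liver's mRNA response to a high-fat diet (HFD) was compared between 2 inbred mouse strains, C3HeB/FeJ (C3H) and C57BL/6NTac (B6N). For each gene the response of a strain was its HFD mean minus its control mean, and the quantity of interest was the C3H response minus the B6N response, a strain-by-diet interaction. The arrays were assigned by their titles, which gave 42 of the 72 arrays of the series: 18 C3H controls, 8 C3H mice after 21 days of HFD, 8 B6N controls and 8 B6N mice after 21 days of HFD. Arrays of C57BL/6J (B6J) and 129P2/OlaHsd (129) mice, 8 controls and 7 on HFD each, entered the same model, where they contributed to the estimate of the spread. All mice were wild-type males, housed singly and sampled in the random-fed state. HFD mice and 129 controls were 17 weeks old, and C3H, B6N and B6J controls 15 to 17 weeks. Outside 129, age thus went partly with diet, and its part in the results was not tested. The protocol in the labels has control mice on a low-fat diet for at most 21 days although the treatment field of those mice says none, which leaves it unsettled whether each of them ate it. All 19938 genes with a probe set of a single gene symbol were tested.

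In the liver, fatty acids from the diet or from adipose tissue act as ligands of the nuclear receptor PPAR-alpha, which switches on genes of fatty acid oxidation, ketone body synthesis and the microsomal Cyp4a hydroxylases. Other nuclear receptors, the pregnane X receptor and the constitutive androstane receptor, control a drug-metabolising programme of cytochrome P450 enzymes (Cyp2b, Cyp2c, Cyp3a), carboxylesterases and transporters. Many of these genes are also expressed at different levels in male and female mouse liver under growth hormone. C57BL/6 mice are widely used as a model of diet-induced obesity.

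Values were log2 normalised probe set signals, and arrays give no read depth, so the number of arrays limits the precision. The array medians lay between 3.10 and 3.28 in C3H and between 4.52 and 4.67 in B6N, so levels were not set against each other across strains and each response was formed within a strain. The interquartile range of an array's values was also narrower in C3H, by a factor of 1.235, and the median residual SD was 0.229 in C3H and 0.197 in B6N. Alb, Ttr and Apoa1, secreted hepatocyte proteins, lay between 8.65 and 10.2 log2 units above the array medians in both strains. H2-Ea, which encodes a class II antigen chain not made in C57BL/6 mice, averaged 4.90 ± 0.50 in C3H controls (SD, n = 18) and 3.43 ± 0.07 in B6N controls (n = 8), the latter 1.14 below the B6N array median. On the first component of the within-group residuals, which held 31.0% of the B6N residual variance, the B6N arrays fell into a set of 3 control and 3 HFD arrays (replicates 1 to 3 of each group) and a set of 5 and 5 (replicates 4 to 8). Both sets held both diets. In whole liver, fewer cells of a type and less RNA per cell cannot be told apart. The labels tie no mice to a shared cage, litter or day, and the p-values therefore reflect the spread among these samples, which may be technical.

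Most genes called in 1 strain responded with the same sign in the other, and 9 genes differed in the direct test. Cyp3a44, Cyp3a11, Cyp2c55, Gm4956 and Ces2a, mostly genes of drug metabolism, responded higher in C3H than in B6N. Cyp17a1, Apoa4, Anxa2 and Pnldc1 responded lower in C3H. For Gm4956 and Pnldc1 both C3H means lay below the array median, where a level cannot be told from background. A response of these 2 genes in C3H could therefore not be seen, and their differences rest on B6N. In B6N the Pnldc1 control mean, 4.38, also lay below the array medians, so the size of its rise there is uncertain. These 9 were 0.0451% of the genes tested (limma, Benjamini-Hochberg adjusted p under 0.05, termed called below). The 5 higher in C3H were 0.0251% and the 4 lower in C3H 0.0201%, and 751 genes (3.77%) reached an unadjusted p under 0.05, 473 (2.37%) above and 278 (1.39%) below 0. The count lower in C3H was 2 without B6N HFD replicate 1. Normalising all arrays to common quantiles gave 7 higher and 3 lower, refitting the 42 arrays alone gave 7 and 2, and stretching the C3H values to the B6N interquartile range gave 6 and 3. The 95% interval of the difference had a median half-width of 0.28 log2 units over all genes, and the smallest called difference was 0.67, and a gene with a smaller difference that missed the threshold is not shown to respond alike in both strains.

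HFD itself changed 170 genes in C3H (0.853% of those tested; 103 higher, 0.517%, and 67 lower, 0.336%) and 183 in B6N (0.918%; 127 higher, 0.637%, and 56 lower, 0.281%). Of these, 83 (0.416%) changed in the same direction in both strains, 58 of them higher and 25 lower on HFD, while 2 genes (0.01%), Cyp3a44 and Cyp3a11, changed in opposite directions, with C3H calls that 1 of 18 arrays (Cyp3a44) or 1 of 5 (Cyp3a11) could remove, as set out with those genes. The 85 genes called in both strains were 50% of the C3H calls and 46.4% of the B6N calls. Over all calls, the 83 shared genes included, 162 of the 170 C3H calls had the same sign in B6N. So had 172 of the 183 B6N calls in C3H. The share of equal signs over all genes tested was not counted. Of the 85 genes called in C3H alone, 0 were called in the difference of responses, and of the 98 called in B6N alone 5 were (Cyp2c55, Gm4956, Cyp17a1, Anxa2 and Pnldc1). A call in 1 strain alone was therefore, for the other genes, not a shown strain difference. For 137 of the 268 genes called in either strain (51.1%) the 95% interval of the difference lay within 1.5-fold in either direction, and for 224 (83.6%) within 2-fold.

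**Figure D1:**
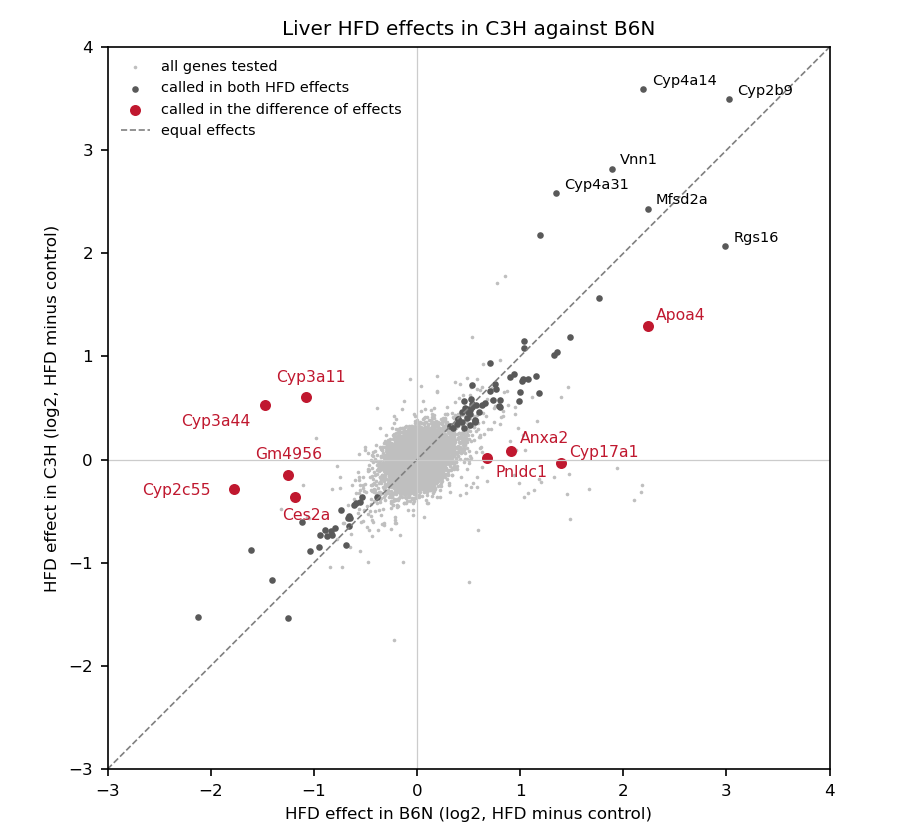
HFD response in C3H (vertical) against HFD response in B6N (horizontal), both as log2 HFD minus control, for the 19938 genes tested; the dashed line marks equal responses. Red points are the 9 genes called in the difference, of which Cyp3a44 and Cyp3a11 lie in the upper left quadrant, and dark points are the 85 genes called in both strains.

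Cyp3a44 and Cyp3a11 encode members of the Cyp3a family, the main drug-oxidising P450 enzymes of the liver and textbook targets of the pregnane X receptor. They fell on HFD in B6N and rose in C3H. The Cyp3a44 value ranged in B6N controls from 7.11 to 8.22 with a median of 7.70, and in B6N HFD livers from 5.95 to 6.40 with a median of 6.15. In C3H it ranged from 4.18 to 5.70 among controls (median 5.29) and from 5.33 to 6.17 on HFD (median 5.68). Thus all 8 B6N HFD arrays lay below the lowest B6N control, whereas all 8 C3H HFD arrays lay above the C3H control median and 3 above the highest control. The Cyp3a44 response was -1.48 ± 0.17 (SE) in B6N, a 2.78-fold decrease (limma adjusted p = 2.1e-09), and 0.53 ± 0.14 in C3H, a 1.44-fold increase (adjusted p = 0.046). The responses differed by 2.0 ± 0.22 (adjusted p = 2.3e-09), a 4.01-fold ratio of folds and the largest difference among the 9 genes. It was 1.91 (adjusted p = 6.9e-04) against the B6N set of replicates 1 to 3 alone and 2.06 against the other B6N set.

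Cyp3a11 ranged in B6N from 11.82 to 12.30 among controls (median 12.07) and from 10.74 to 11.26 on HFD (median 10.96). In C3H the Cyp3a11 values ran from 8.05 to 9.94 among controls (median 9.06) and from 9.22 to 10.43 on HFD (median 9.60). The B6N groups did not overlap, and in C3H all 8 HFD arrays exceeded the control median but 2 exceeded the highest control. The Cyp3a11 response was -1.08 ± 0.18 in B6N (limma adjusted p = 5.5e-05) and 0.61 ± 0.16 in C3H (adjusted p = 0.029), a difference of 1.69 ± 0.24 (adjusted p = 1.0e-05). The difference was 1.58 against B6N replicates 1 to 3 (adjusted p = 0.12) and 1.75 against replicates 4 to 8 (adjusted p = 6.2e-04).

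For both genes the C3H rise was the weaker side. The call of the Cyp3a44 rise was lost in the fit of the 42 arrays alone (adjusted p = 0.087), with a separate spread per group (0.37), with quantile normalisation (0.063), with median centring (0.084), with either B6N set left out (0.058 and 0.054), and without any 1 of 18 arrays (0.050 to 0.14). These were C3H control replicates 1, 5 and 12 to 18, C3H HFD replicates 1 to 3 and 5 to 8, and B6N HFD replicates 5 and 7. The call of the Cyp3a11 rise was lost in the fit of the 42 arrays (0.11), with a separate spread per group (0.22), with median centring (0.057), with B6N replicates 4 to 8 left out (0.058), and without C3H control replicate 15 or 16 or C3H HFD replicate 6, 7 or 8 (0.051 to 0.13). The differences between strains stayed called for both genes without any 1 array. Probe sets of close paralogs such as Cyp3a11 and Cyp3a44 can share signal, so the pair may not be independent. Of the other measured Cyp3a genes, Cyp3a13, Cyp3a16, Cyp3a25 and Cyp3a57 were not called in any of the 3 contrasts, and the group means of Cyp3a16 and Cyp3a57 lay below the array medians. Their differences ran from 0.20 (Cyp3a13) to 0.41 ± 0.15 (Cyp3a25).

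Because these neighbouring genes moved together, their upstream sequences are shown. They are the 250 bases before the annotated start from RefSeq (GRCm38.p6, the C57BL/6J reference and not C3H sequence), which for Cyp3a11 is chr5:145879855-145880104 and for Cyp3a44 is chr5:145805875-145806124, both on the minus strand. Capitals mark exact matches, on either strand, to AGGTCA or AGTTCA, hexamers that nuclear receptors of this class bind in pairs.
Cyp3a11: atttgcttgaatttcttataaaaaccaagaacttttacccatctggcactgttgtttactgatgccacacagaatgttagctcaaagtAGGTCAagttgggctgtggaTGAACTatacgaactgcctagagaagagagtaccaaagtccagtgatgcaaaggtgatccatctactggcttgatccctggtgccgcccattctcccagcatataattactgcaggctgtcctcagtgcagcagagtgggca
Cyp3a44: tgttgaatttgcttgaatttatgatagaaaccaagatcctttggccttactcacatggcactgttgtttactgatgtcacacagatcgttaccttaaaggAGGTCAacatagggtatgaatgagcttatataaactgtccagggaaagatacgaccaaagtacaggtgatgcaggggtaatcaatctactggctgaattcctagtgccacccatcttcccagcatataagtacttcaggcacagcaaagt
The Cyp3a11 window held 1 match to AGGTCA and, 14 bases further, 1 to AGTTCA on the opposite strand, and the Cyp3a44 window held 1 match to AGGTCA. Windows of 300 bases (250 before to 50 after the start) were aligned for the pair, and 227 of 316 alignment columns were identical (71.8%). RefSeq windows were at hand for 6 of the 9 called genes, and Ces2a held 1 AGGTCA, Apoa4 1 AGTTCA, and Cyp2c55 and Anxa2 neither. Among 32851 RefSeq windows of this length 27.7% held at least 1 of the 2 hexamers (AGGTCA 16.3%, AGTTCA 13.99%), so a match is a description of the letters and marks no binding site.

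Cyp2c55 and Ces2a, further genes of xenobiotic metabolism, fell steeply in B6N and by less, or without a call, in C3H. Cyp2c55 is a P450 that hydroxylates arachidonic acid. Its values ranged in B6N from 5.67 to 7.2 among controls (median 5.97) and from 3.82 to 5.13 on HFD (median 4.40). In C3H the Cyp2c55 values ran from 3.55 to 5.03 among controls (median 4.22) and from 3.44 to 4.54 on HFD (median 3.77), largely within the same range. The Cyp2c55 response was -1.77 ± 0.20 in B6N (limma adjusted p = 3.4e-09) and -0.29 ± 0.17 in C3H (adjusted p = 0.73), and the difference was 1.49 ± 0.27 (adjusted p = 0.0020). In C3H the higher Cyp2c55 mean stood 1.05 above the array median, so a fall of the B6N size would have ended below it. The B6N HFD mean, 4.40, lay below the B6N array medians, where a level cannot be told from background. The sizes of both Cyp2c55 responses and of their difference are therefore uncertain. Against B6N replicates 1 to 3 alone the difference was 1.23 (adjusted p = 0.70) and against replicates 4 to 8 it was 1.64 (0.0060).

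Ces2a encodes a carboxylesterase that cleaves esters and triglycerides. It fell in both strains, from between 10.24 and 11.09 (median 10.76) to between 9.15 and 9.99 (median 9.46) in B6N. In C3H, Ces2a ran from 8.96 to 9.68 among controls (median 9.41) and from 8.64 to 9.53 on HFD (median 8.95), with 5 of 8 HFD arrays below the lowest control. Its response was -1.19 ± 0.11 in B6N (limma adjusted p = 1.0e-12) and -0.36 ± 0.09 in C3H (adjusted p = 0.033), so the fall was larger in B6N by 0.83 ± 0.14 (adjusted p = 0.0013). The call of the Ces2a fall in C3H was lost with quantile normalisation (0.11), in the fit of the 42 arrays (0.12), with a separate spread per group (0.26) and without C3H control replicate 7, 9 or 12 or C3H HFD replicate 1, 2, 3, 4 or 6 (0.050 to 0.16). The Ces2a difference was 0.82 (adjusted p = 0.14) and 0.83 (0.0060) against the 2 B6N sets, in the same order. Of its family, Ces2b, Ces2e, Ces2f and Ces2g were not called in either strain or in the difference, which ran from 0.11 to 0.24, and the group means of Ces2b and Ces2f lay below the array medians.

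Gm4956, a transcribed pseudogene per RefSeq, fell in B6N from between 6.77 and 8.0 (median 7.14) to between 5.43 and 6.74 (median 5.80). In C3H it stayed between 2.52 and 3.60 in controls (median 2.86) and between 2.52 and 2.87 on HFD (median 2.72), with both group means below the array median, where a level cannot be told from background. The Gm4956 responses were -1.25 ± 0.17 in B6N (limma adjusted p = 7.3e-07) and -0.15 ± 0.15 in C3H (adjusted p = 0.90), a difference of 1.1 ± 0.23 (adjusted p = 0.023). The call was lost without B6N control replicate 2 or 3, B6N HFD replicate 4, 5 or 8, or C3H HFD replicate 7 (adjusted p 0.052 to 0.084), and against B6N replicates 1 to 3 alone (0.88). It was also lost with quantile normalisation (0.051), with a separate spread per group (0.12) and with C3H stretched to the B6N scale (0.067).

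**Figure D2:**
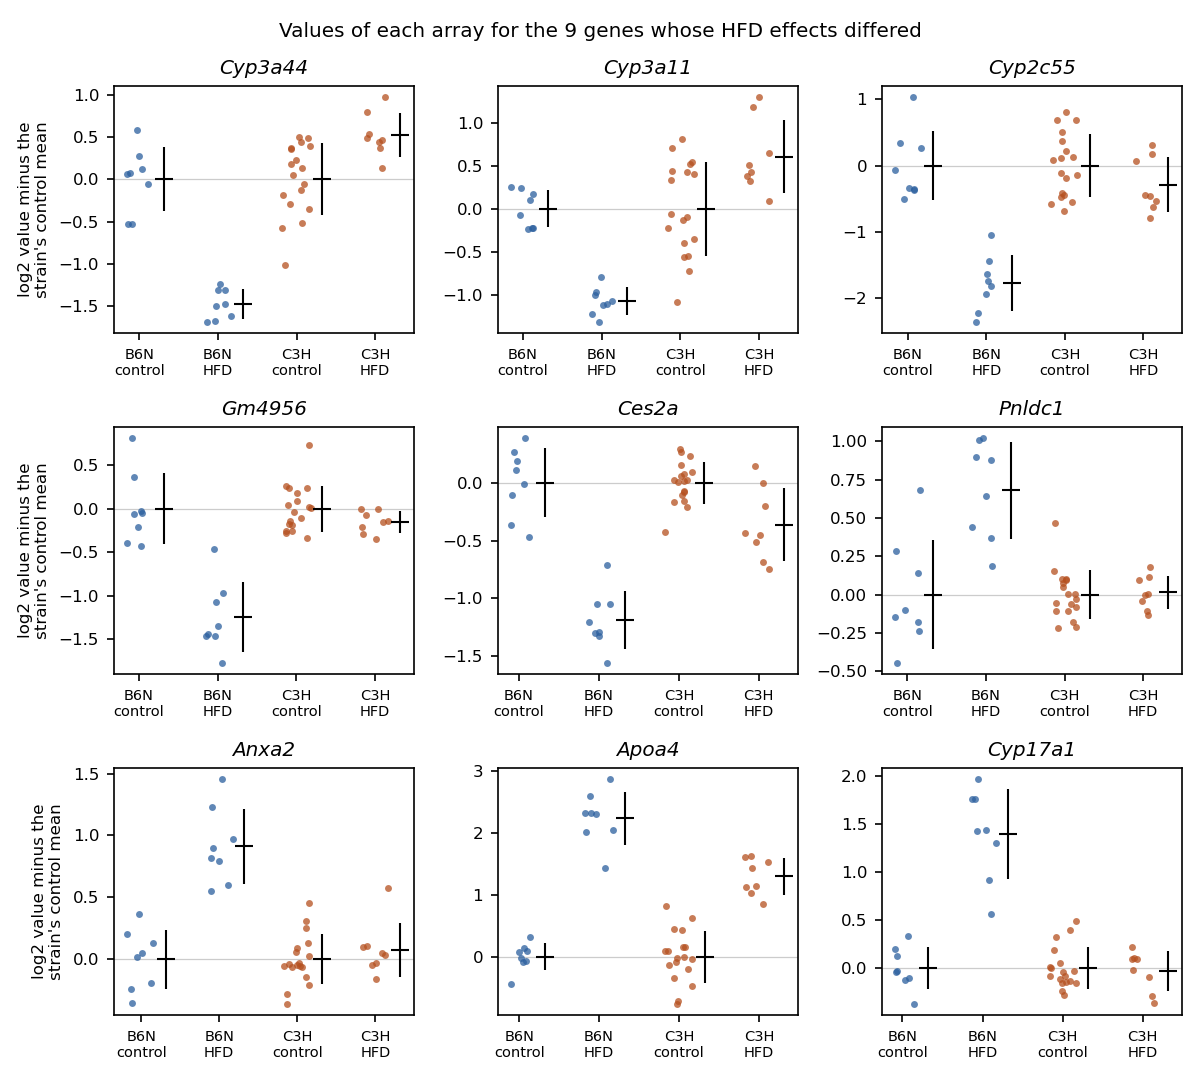
Each point is 1 array, plotted as its log2 value minus the control mean of its strain (vertical axes, own scale for each gene) for the 9 called genes, with the group mean and SD as a cross and bar (n = 8 B6N control, 8 B6N HFD, 18 C3H control, 8 C3H HFD). In 8 of the 9 genes all 8 B6N HFD arrays lie outside the range of the B6N controls, and in Pnldc1 4 of 8 do. The 9 were selected from these same values, so the separation is no separate support, and its share over all genes was not counted.

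Among the genes whose response was lower in C3H, Apoa4 rose in both strains. It encodes apolipoprotein A-IV, a lipoprotein component made by intestine and liver that accompanies lipid loading. Apoa4 ranged in B6N from 8.79 to 9.56 among controls (median 9.26) and from 10.66 to 12.10 on HFD (median 11.54). In C3H it ranged from 9.23 to 10.81 (median 9.98) and from 10.85 to 11.62 (median 11.28), so neither strain's groups overlapped. The rise was 2.24 ± 0.15 in B6N, 4.71-fold (limma adjusted p = 6.5e-19), and 1.30 ± 0.13 in C3H, 2.45-fold (adjusted p = 1.2e-11), and the difference was -0.94 ± 0.20 (adjusted p = 0.026). This was a difference in size alone and depended on the scale of the values. With quantile normalisation of all arrays it was -1.11 (adjusted p = 4.0e-04). With C3H stretched to the B6N interquartile range it was -0.64 (adjusted p = 1.0). Its call was also lost in the fit of the 42 arrays (0.27), with a separate spread per group (0.065), against either B6N set alone (0.88 and 0.21), and without B6N control replicate 5 or 8, B6N HFD replicate 1 or 5, or C3H HFD replicate 3, 5, 6 or 7 (0.051 to 0.11).

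Cyp17a1, the steroid 17-alpha-hydroxylase, rose in B6N and not in C3H. It ranged in B6N from 6.22 to 6.93 among controls (median 6.55) and from 7.15 to 8.56 on HFD (median 8.02). In C3H the Cyp17a1 values ran from 3.0 to 3.76 (median 3.22) and from 2.92 to 3.49 (median 3.32), close to the array median in both groups. Its response was 1.40 ± 0.20 in B6N, 2.63-fold (limma adjusted p = 2.0e-06), and -0.03 ± 0.17 in C3H (adjusted p = 0.99), a difference of -1.43 ± 0.27 (adjusted p = 0.0035). The Cyp17a1 difference was -1.61 against B6N replicates 1 to 3 (adjusted p = 0.13), -1.31 against replicates 4 to 8 (0.22), and called in neither, and with a separate spread per group its adjusted p was 0.065. At such a level in C3H the size of a fold is uncertain.

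Anxa2 encodes annexin A2, a calcium-dependent membrane-binding protein that is low in resting hepatocytes. In B6N it rose from between 5.19 and 5.90 (median 5.57) to between 6.08 and 6.99 (median 6.39), with no overlap. In C3H, Anxa2 lay between 3.68 and 4.50 in controls (median 4.0) and between 3.88 and 4.62 on HFD (median 4.08). The Anxa2 responses were 0.91 ± 0.10 in B6N (limma adjusted p = 3.0e-09) and 0.08 ± 0.09 in C3H (adjusted p = 0.92), and differed by -0.83 ± 0.14 (adjusted p = 3.6e-04). The difference was -0.81 (adjusted p = 0.096) and -0.85 (0.0060) against the 2 B6N sets. Pnldc1, a ribonuclease of the PARN family known for trimming piRNAs, moved by less. It ranged in B6N from 3.94 to 5.06 among controls (median 4.26) and from 4.57 to 5.40 on HFD (median 5.14), with 4 of 8 HFD arrays above the highest control. The B6N control mean of Pnldc1 lay below the B6N array medians, where a level cannot be told from background. In C3H the values ran from 2.32 to 3.01 among controls (median 2.53) and from 2.41 to 2.72 on HFD (median 2.54). Pnldc1 responded by 0.68 ± 0.10 in B6N (limma adjusted p = 4.9e-06) and by 0.02 ± 0.09 in C3H, and the difference was -0.67 ± 0.14 (limma adjusted p = 0.016). It was -1.02 and called against B6N replicates 1 to 3, and -0.46 against replicates 4 to 8 (adjusted p = 1.0). The Pnldc1 call was also lost without B6N control replicate 5 or B6N HFD replicate 1 (both 0.051), with quantile normalisation (0.13), in the fit of the 42 arrays (0.14) and with a separate spread per group (0.065).

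The same 9 genes were set beside the responses of the other strains, which were part of the same fit. Cyp3a44 fell in B6J (-1.20 ± 0.17, limma adjusted p = 4.2e-06) and 129 (-1.26 ± 0.17) as it did in B6N. Cyp3a11 fell in B6J (-0.79 ± 0.19, adjusted p = 0.034) and 129 (-1.06 ± 0.19), so C3H was the strain of the 4 in which both genes were higher on HFD. Cyp2c55 (-1.36 and -1.0) and Ces2a (-0.98 and -0.69) also fell in B6J and 129. Cyp17a1 rose in B6J (1.40 ± 0.21) and had a response of 0.30 ± 0.21 in 129, which was not called. Apoa4 rose in B6J (1.68 ± 0.16), with 0.24 ± 0.16 in 129 (adjusted p = 1.0). Gm4956 fell in B6J (-0.74 ± 0.18, adjusted p = 0.044) and not by a call in 129 (-0.16), and Anxa2 (0.42 and 0.28) and Pnldc1 (0.30 and -0.02) were called in neither. The differences between C3H and these 2 strains are not part of this comparison.

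**Figure D3:**
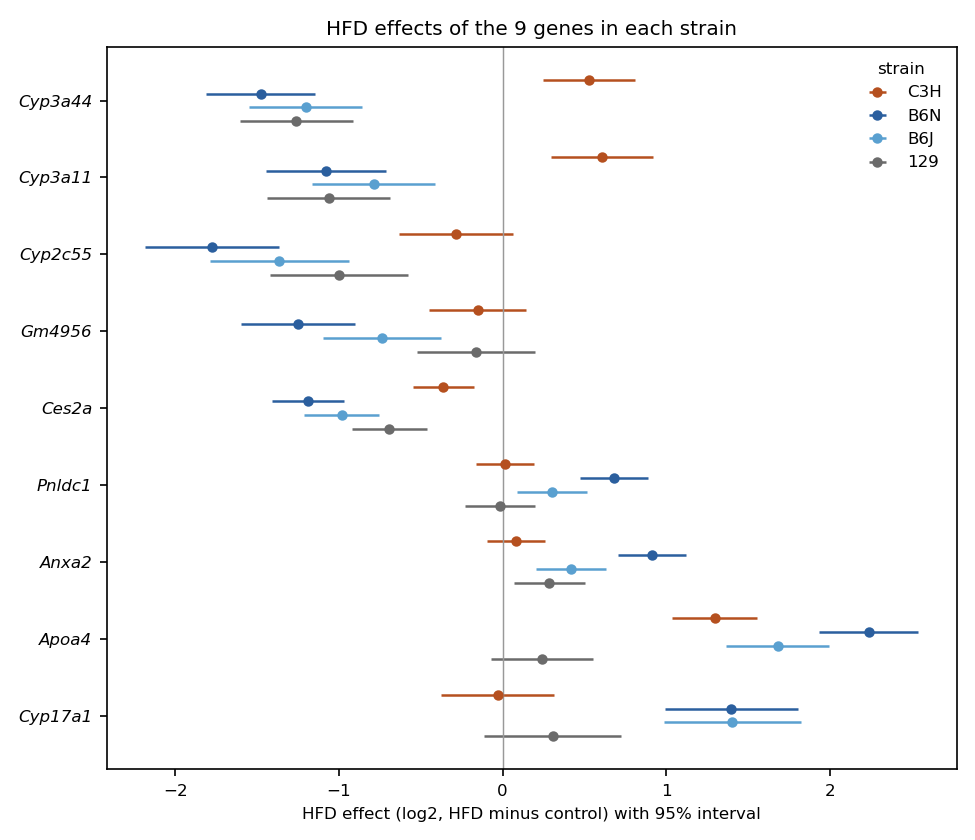
HFD response (log2, HFD minus control) of the 9 called genes in C3H, B6N, B6J and 129, with 95% intervals from the fit. For Cyp3a44 and Cyp3a11 the C3H point lies right of 0 and the other strains' points left of it.

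Some genes fell short of the threshold. Cidec, a lipid droplet protein that promotes droplet fusion, ranged in B6N from 4.81 to 5.73 among controls and from 5.78 to 7.48 on HFD. In C3H, Cidec ran from 2.81 to 4.0 and from 3.04 to 3.91. Its higher C3H mean stood 0.30 above the array median, so the size of its C3H response is uncertain. The B6N groups were thus apart and the C3H groups overlapped, with responses of 1.04 ± 0.16 and 0.10 ± 0.14 and a difference of -0.95 ± 0.21 (limma adjusted p = 0.065, and 0.034 with the replicate number as a block). It was also called with median centring (0.047), among bright genes alone (0.043) and with the first residual component as a covariate (0.046). Cidec was called without B6N control replicate 5, B6N HFD replicate 3, 6, 7 or 8, C3H control replicate 5, 8 or 15, or C3H HFD replicate 1 or 4 (0.025 to 0.046). Slco1a4, a bile acid and drug uptake transporter, fell in B6N (-0.98 ± 0.21) with 0.21 ± 0.18 in C3H, a difference of 1.19 ± 0.27 (adjusted p = 0.072, and 0.046 with the block). It was also called with quantile normalisation (0.014), among bright genes alone (0.044) and with the residual component (0.0091). Slco1a4 was called without B6N control replicate 2, B6N HFD replicate 1, C3H control replicate 2 or C3H HFD replicate 1, 2, 3 or 4 (0.025 to 0.048). Gsta4, a glutathione transferase for lipid peroxidation products, fell in both strains (-1.11 ± 0.09 in B6N and -0.61 ± 0.08 in C3H), and its difference of 0.50 ± 0.12 was not called (adjusted p = 0.17). It was called with quantile normalisation (0.60, adjusted p = 0.0058) and without B6N HFD replicate 2 (adjusted p = 0.044). Lpl, lipoprotein lipase, ran the other way from most: it fell in C3H by 0.99 ± 0.14 (adjusted p = 1.2e-06) with -0.13 ± 0.17 in B6N, and the difference of -0.86 ± 0.22 was not called (adjusted p = 0.23).

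Cyp2b9, Cyp4a14, Rgs16, Vnn1, Mfsd2a and Cyp4a31 had the largest mean responses among genes called alike in both strains and not called in the difference. They were selected as not called in the difference, so the missing call is no result about them. Cyp2b9, a P450 that is female-biased in mouse liver, ranged in C3H from 2.08 to 5.21 among controls and from 4.30 to 6.81 on HFD. In B6N its range was 3.35 to 5.65 in controls and 3.43 to 9.48 on HFD, so that 1 of 8 B6N HFD arrays stayed below the control median. Cyp2b9 rose by 3.49 ± 0.34 in C3H (limma adjusted p = 1.1e-11) and by 3.02 ± 0.41 in B6N (2.2e-07), with a difference of 0.47 (95% interval -0.59 to 1.53). Its control means, 2.62 in C3H and 4.11 in B6N, lay below the array medians, where a level cannot be told from background, so the sizes of both folds and of their difference are uncertain. Rgs16, which dampens G protein signalling, rose by 2.07 and 2.99 (difference -0.92, -2.18 to 0.34) and Mfsd2a, a lysophospholipid transporter, by 2.43 and 2.24 (0.20, -0.84 to 1.24). Each of these 3 intervals reached past a 2-fold difference on 1 side.

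Cyp4a14, Cyp4a31 and Cyp4a10, fatty acid hydroxylases, and Vnn1, a pantetheinase, are classical PPAR-alpha targets and rose in both strains. Cyp4a14 ran in C3H from 2.46 to 3.68 among controls and from 5.25 to 7.23 on HFD, with no overlap. In B6N it ran from 7.17 to 10.51 among controls and from 9.94 to 11.76 on HFD, and 7 of 8 HFD arrays exceeded the highest control. The Cyp4a14 rise was 3.59 ± 0.40 in C3H and 2.19 ± 0.47 in B6N, and the difference of 1.40 (95% interval 0.16 to 2.64) was not called (limma adjusted p = 1.0). Vnn1 rose by 2.82 and 1.89 (difference 0.93, interval 0.28 to 1.58), Cyp4a31 by 2.58 and 1.35 (1.24, 0.50 to 1.98) and Cyp4a10 by 2.18 and 1.19 (0.99, 0.34 to 1.64), none called in the difference. With C3H stretched to the B6N scale Cyp4a31 and Vnn1 were called, both at an adjusted p of 0.036. In C3H controls Cyp4a14, Vnn1 and Cyp4a31 lay near the array median, where the size of a fold is uncertain. Over the 83 genes that changed alike, the response was larger in B6N in 64 and in C3H in 19, with median sizes of 0.76 and 0.61. After the C3H values were stretched to the B6N interquartile range, 50 of the 83 were larger in C3H, so which strain responded more could not be read from these values.

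Gene lists of liver pathways were then counted in both strains and in the difference. The lists were written with earlier results of these data known, so their counts are no separate support. Over all genes the median response was 0.0091 in C3H and -0.0026 in B6N, and the median difference was 0.0087. Of 35 measured genes that burn fatty acids or make ketone bodies, 17 rose in C3H and 21 in B6N, 0 fell in either, and the others were not called. The median responses were 0.40 and 0.45. Examples called in both strains were Acot2, a mitochondrial acyl-CoA thioesterase (0.73 and 0.76), Crat, carnitine acetyltransferase (0.83 and 0.94), and Decr1, which handles unsaturated acyl-CoAs (0.54 and 0.54). The largest differences in size were those of Cpt1a and Ehhadh. Cpt1a responded by 0.58 in C3H, not called, and by 0.99 in B6N, called. Ehhadh responded by 0.44 in C3H and 0.14 in B6N and was called in neither. None of the 35 was called in the difference by limma, 1 reached an unadjusted p under 0.05, and the median difference was -0.04. With a separate spread per group the C3H count was 11, and with B6N replicates 1 to 3 or 4 to 8 alone the B6N count was 2 or 6.

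Among 29 PPAR-alpha targets, 12 rose in C3H and 10 rose and 1 fell in B6N, with medians of 0.30 and 0.34. None was called in the difference, and the 5 that reached an unadjusted p under 0.05 were Cyp4a10, Cyp4a14, Cyp4a31, Vnn1 and Vnn3, all higher in C3H. The B6N count was 1 and 7 in the 2 B6N sets. Aldh3a2, a fatty aldehyde dehydrogenase (1.15 in C3H and 1.03 in B6N), Fgf21, a secreted hormone of the fasted and lipid-loaded liver (1.04 and 1.36), and Retsat, retinol saturase (0.66 and 0.70), rose in both.

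Lists of lipid handling gave more modest counts. Of 25 lipid droplet and lipolysis genes, 5 rose in C3H and 3 in B6N, among them Plin2, the droplet coat protein perilipin 2 (0.68 and 0.76), and Mgll, monoglyceride lipase (0.78 and 1.02). Of 28 genes for lipid uptake and lipoproteins, 4 rose and 2 fell in C3H, 6 rose in B6N, and Apoa4 was the 1 called in the difference. Cd36, a fatty acid translocase, rose in C3H (1.71) with 0.78 in B6N, which was not called, and a difference of 0.93 that was not called either. Of 32 genes of fatty acid and triglyceride synthesis, 5 rose in each strain, among them the desaturase Fads2 (0.81 and 1.15) and the elongase Elovl5 (0.65 and 1.0), and none was called in the difference by limma, where 1 above and 1 below 0 reached an unadjusted p under 0.05. The C3H count was 3 without C3H HFD replicate 1 or 5. Of 20 cholesterol synthesis genes, 0 were called in either strain or in the difference by limma, where 1 reached an unadjusted p under 0.05.

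The cytochrome P450 list of 37 genes held 3 of the 9 called differences (Cyp3a44, Cyp3a11 and Cyp2c55), all higher in C3H. Over all genes tested 0.0451% were called in the difference. In C3H 4 rose and 2 fell, and in B6N 2 rose and 4 fell. The C3H total of 6 was 3 without C3H HFD replicate 8, 2 with a separate spread per group and 10 after stretching. The median difference of the list was 0.01, near that of all genes. Of 39 conjugation and drug transport genes, Ces2a was the 1 called in the difference. In C3H 1 of the 39 rose and 5 fell, and in B6N 0 rose and 1 fell, with medians of -0.12 and -0.06. The C3H total of 6 ran from 1 to 8 over the alternative fits. The constitutive androstane receptor targets of the Cyp2b family beyond Cyp2b9 (Cyp2b10, Cyp2b13, Cyp2b19 and Cyp2b23) were called in no contrast. Cyp2b13, Cyp2b19 and Cyp2b23 had all group means below the array medians, so that a change in them could not be seen. For Cyp2b10 the response was 0.38 ± 0.19 in C3H and 0.18 ± 0.22 in B6N. Of 38 glutathione and antioxidant genes, 6 fell in C3H and 2 in B6N (5 in B6N with the replicate number as a block). None was called in the difference, where 1 reached an unadjusted p under 0.05.

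Of 28 measured genes that are higher in male than in female liver, 9 fell in C3H and 6 in B6N, 0 rose, and the others were not called. The medians were -0.42 and -0.31. Cyp7b1, an oxysterol hydroxylase (-0.83 in C3H and -0.68 in B6N), and C8b, a complement component (-0.74 and -0.87), fell in both. None was called in the difference by limma, and 2 were lower in C3H at an unadjusted p under 0.05. The C3H count was 5 without C3H HFD replicate 2 or 3 and with a separate spread per group. The B6N count was 3 without B6N control replicate 5 or 7 or B6N HFD replicate 5 or 6, in the fit of the 42 arrays and after stretching, and 2 in each B6N set. Among 37 female-biased genes, 7 rose and 1 fell in C3H, and 7 rose and 2 fell in B6N. Cyp3a44 (higher in C3H) and Cyp17a1 (lower in C3H) belonged to this list, and at an unadjusted p under 0.05 it held 7 differences above and 6 below 0.

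Of 47 genes for amino acid breakdown and urea synthesis, 12 fell in C3H (6 with a separate spread per group) and 7 in B6N (2 in the set of replicates 1 to 3), 0 rose, and the others were not called. The medians were -0.18 and -0.06. Etnppl, an ethanolamine-phosphate lyase (-1.53 and -1.25), Acmsd, of tryptophan breakdown (-1.17 and -1.40), and Csad, of taurine synthesis (-0.88 and -1.61), fell in both strains. None of the 47 was called in the difference by limma, where 1 above and 3 below 0 reached an unadjusted p under 0.05. In bile acid synthesis Cyp7a1, the rate-limiting enzyme, fell by 1.53 ± 0.34 in C3H and by 2.12 ± 0.40 in B6N, with a difference of 0.59 (95% interval -0.46 to 1.64). In the lists of growth hormone signalling (24 measured), glucose metabolism (30), nuclear receptors (38), acute phase proteins (30), the unfolded protein response (31) and solute carriers (37), none was called in the difference by limma. There 2, 2, 1, 5, 1 and 3 genes were below 0 at an unadjusted p under 0.05, and 1 acute phase gene was above 0. No clock (23 measured), interferon (32), MHC (14), oxidative phosphorylation (41) or cell cycle (30) gene was called in limma in either strain or in the difference, where 0 clock, 0 interferon, and 1 gene of each other list reached an unadjusted p under 0.05. Without B6N control replicate 2 or 4, 1 MHC gene was called in B6N, and without C3H control replicate 11 or C3H HFD replicate 6, 1 cell cycle gene was called in C3H.

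**Figure D4:**
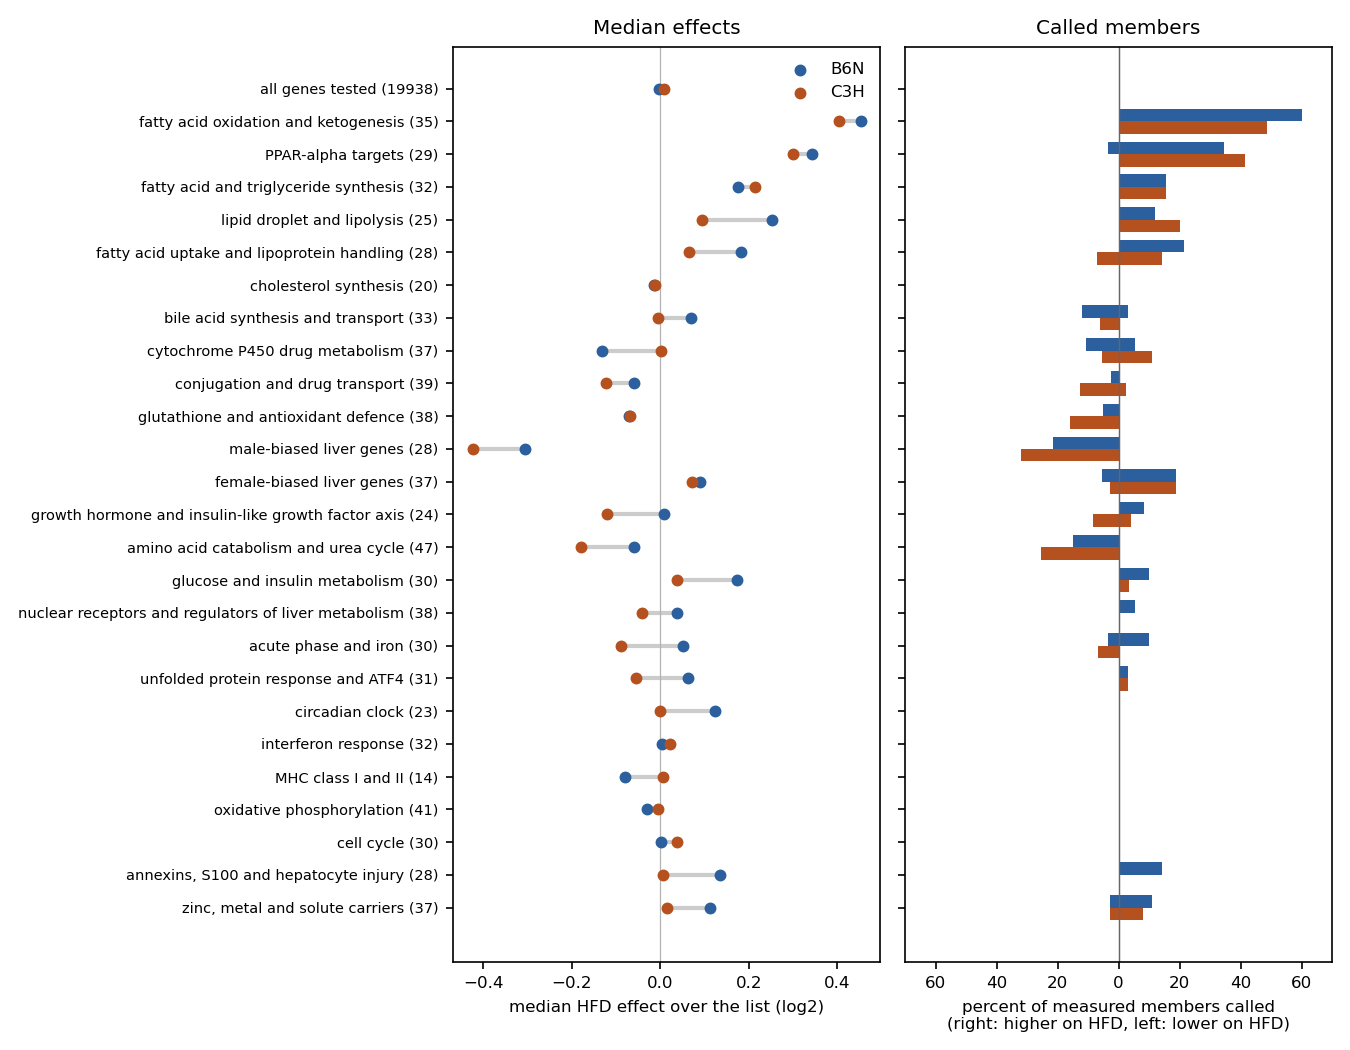
Left, median HFD response (log2) of each gene list in B6N and C3H, with the number of measured genes in parentheses; right, percent of each list called higher (right of 0) or lower (left of 0) on HFD. The lists of fatty acid oxidation and PPAR-alpha targets lie to the right and male-biased genes to the left in both strains.

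Of the list of annexins, S100 proteins and other genes of hepatocyte injury, 4 of 28 rose in B6N and 0 in C3H. These were Anxa2, Lgals1 (galectin-1), Osbpl3 (an oxysterol-binding protein) and Krt23 (a keratin), and Anxa2 was the 1 called in the difference. The B6N count was 2 without B6N control replicate 1 or B6N HFD replicate 1, 2 or 5 and after stretching, and 1 and 2 in the 2 B6N sets. Lgals1 responded by 0.68 in B6N and by -0.21 in C3H, a difference of -0.89 that was not called. Markers of other cell types were measured beside these genes. Of 26 macrophage, 20 lymphocyte, 28 stellate cell, 20 endothelial and 10 bile duct markers, none was called in limma in either strain or in the difference, where 1, 1, 0, 2 and 1 reached an unadjusted p under 0.05. The mean level of 10 adipocyte markers lay between 6.22 and 6.38 in B6N controls and between 6.43 and 6.55 on HFD, and between 4.82 and 5.30 and between 4.72 and 5.04 in C3H. Cidec was the 1 adipocyte marker called in B6N, and Lpl the 1 called in C3H. The difference of responses had a median of -0.30 over these 10 markers and was below 0 in 9 of them, at an unadjusted p under 0.05 in Cidec, Lpl and Lep (leptin, -0.39), and none was called. Adipoq, the adipocyte hormone adiponectin, was the exception at 0.09. The part of adipocyte RNA in the Cidec and Anxa2 differences was not tested.

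Pancreatic acinar markers differed between arrays. Their mean level over 25 genes ran in B6N from 4.41 to 5.86 among controls (median 4.56) and from 4.49 to 7.06 on HFD (median 5.77). In C3H it ran from 3.22 to 6.15 among controls (median 3.59) and from 3.18 to 5.55 on HFD (median 3.83). The B6N HFD group thus had more arrays with a high level, and all 25 differences of responses were below 0 with a median of -1.37, but none was called in limma and 1 reached an unadjusted p under 0.05. With the acinar level as a covariate all 9 genes remained called, so the 9 differences were found with and without it.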

How the data were processed

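The deposited values were log2 signals per probe set from Affymetrix Mouse Gene ST arrays of total liver RNA (column kit with DNase step), which the authors made by RMA (Affymetrix Expression Console 1.1), as the submitters' processing notes say. Whether all arrays were normalised together is not given in the sources used here. Quantile normalisation equalises medians, and the medians fell into separate ranges by strain, so only within-strain differences were compared. Of 35556 probe sets, 21789 carried 1 gene symbol, 1621 several and 12146 none in the platform annotation, and 21698 were updated by Entrez identifier. Where a gene had more than 1 probe set (999 genes), that with the highest mean was used. No 2 arrays were identical.

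A linear model per gene (limma 3.58.1 under R 4.3.3) had 8 group means over 72 arrays and empirical Bayes moderation. Tests were two-sided, with Benjamini-Hochberg adjustment over all genes, and every adjusted p in the text is from this fit or a named alternative of it. Values are log2 differences ± SE. The code was tested on simulated data.

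Same-numbered control and HFD arrays deviated together in B6N (correlation 0.101 to 0.462 in 8 of 8 pairs) but not in C3H (-0.271 to 0.185). Same-numbered B6N arrays also fell into the same B6N set, and arrays with different numbers were not correlated for comparison. Whether the numbers pair the samples in B6N was therefore not tested. The replicate block had a correlation of 0.103.

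The strains, gene lists and rules were chosen with earlier results of these data known. The naming rule took all called genes whose higher group mean reached the array median in a strain. It also took up to 2 of the largest differences per list without a called member. It further took the 6 largest mean responses among genes called alike in both strains and not called in the difference. Not every gene it took for a list is described in the text, for example Mogat1, Lpin1, Oat and Igfbp1. Pathway genes given as examples, Cyp2b, Cyp3a and Ces2 relatives, Lgals1, Cd36 and Adipoq were chosen after their values were seen. Alternatives were other normalisations, filters, spreads, covariates, subsets of arrays and each of the 42 arrays left out.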

Additional observations from a re-analysis of the deposited data

Results flagged for a closer look

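The response to HFD differed between C3H and B6N in a direct test for Cyp3a44 (2.0), Cyp3a11 (1.69), Cyp2c55 (1.49), Gm4956 (1.1), Ces2a (0.83), Pnldc1 (-0.67), Anxa2 (-0.83), Apoa4 (-0.94) and Cyp17a1 (-1.43), all as log2 C3H minus B6N.

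Of 45 groups of 8 arrays checked over 15 genes, 4 held an array that stood apart by Dixon's criterion, which chance gives in about 1 of 20 groups. The groups were B6N control, B6N HFD and C3H HFD, and the C3H controls were not checked. Anxa2 in C3H HFD replicate 1 was 4.62 against 4.15 in the next array. Cyp2b9 in B6N control replicate 2 was 5.65 against 4.39. Cyp4a14 in B6N HFD replicate 8 was 9.94, below the next at 11.07. Rgs16 in B6N control replicate 4 was 7.23 against 6.11.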

How the results depend on the processing

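No gene among the 9 changed the sign of its difference under any alternative. The 9 were selected by this contrast and the alternatives reuse the same arrays, so a stable sign is no separate support. The total of 9 ran from 7 to 11 with 1 of 42 arrays left out (4 to 6 higher and 2 to 6 lower in C3H), and the calls in C3H from 139 to 210, in B6N from 143 to 196, and in opposite directions from 0 to 2. The lower count fell to 2 without B6N HFD replicate 1. All 9 remained called with the replicate block (11 genes, 6 higher and 5 lower, and 223 C3H and 221 B6N calls) and with a term for the B6N sets (10 genes), which was chosen after seeing the data. Among the differences between strains named in the text, the block changed the calls of Cidec and Slco1a4.

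A separate spread per group gave 5 differences, 1 of them lower in C3H, and 81 C3H calls. The fit of the 42 arrays gave 2 lower, and the first residual component as a covariate 289 C3H calls. Stretching C3H, chosen after seeing the data, gave 283 C3H and 119 B6N calls. B6N replicates 1 to 3 alone gave 3 differences (2 higher, 1 lower) and 33 B6N calls, and replicates 4 to 8 alone 1 lower and 76 B6N calls, from fewer arrays and also chosen after seeing the data. The 2 opposite responses became 1 with quantile normalisation and with replicates 4 to 8, and 0 with median centring, the 42 arrays, separate spreads and replicates 1 to 3. The cause of these shifts was not tested beyond the fewer arrays. Signal near or below the array median limits Gm4956 and Cyp17a1 in C3H, and Pnldc1 and Cyp2c55 in both strains.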

Other observations

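Other genes were called in the difference under an alternative alone. Ccl9, a chemokine, was called with quantile normalisation, in the fit of the 42 arrays, with the first residual component as a covariate and with a term for the B6N sets. Nat8f5 was called in the fit of the 42 arrays, and Nudt10 against B6N replicates 1 to 3. When all probe sets were tested, 4 of 13767 probe sets with several gene symbols or none were called.

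Among genes called in C3H alone, Lmbr1l (0.44 in C3H and -0.03 in B6N), Ugt3a1, a glycosyltransferase (0.81 and 0.20), and As3mt, arsenite methyltransferase (-0.56 and 0.07), had low p-values for the difference but did not pass the threshold (limma adjusted p = 0.19, 0.53 and 0.51). Mt1 and Mt2, metallothioneins, had differences of -1.28 ± 0.48 and -1.68 ± 0.66 (both adjusted p = 1.0), with C3H controls spread from 6.06 to 10.03 and from 4.99 to 10.39.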
